A study of Mus musculus with 9 samples.

Results

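The cytosolic ribosomal protein genes encode the protein part of the ribosomes that work in the cytoplasm. They were taken by symbol from the RefSeq gene table (GRCm38.p6, whose main chromosomes have the coordinates of mm10): protein-coding genes on chromosomes 1 to 19 whose symbol is Rpl or Rps followed by a number, with or without a final a, x or l, together with Rplp0, Rplp1, Rplp2 and Rpsa, and without the Rps6k kinase genes. The rule gave 77 genes of the 20661 protein-coding genes on these chromosomes, 47 of the large and 30 of the small subunit. It used names and positions only and no measured value.

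TWIST1 occupancy was measured by chromatin immunoprecipitation and sequencing (ChIP-seq) in mouse embryonic stem cells grown as embryoid bodies and differentiated towards neuroepithelium for 3 days. The overexpressing cells (OE) were Twist1-/- A2loxcre cells with a doxycycline-inducible Flag-Twist1 cassette. The control cells (KO) were Twist1-/- without the cassette. Both received doxycycline for 16 h, in medium with serum, and both were Twist1-/-, so the cassette is the only source of TWIST1 that the genotypes name. No uninduced OE library is among the samples. Peak lists were used from 4 OE ChIP libraries, from 2 KO ChIP libraries, numbered 2 and 3, and from 1 KO input, which is chromatin without immunoprecipitation. The 2 OE inputs were not analysed here. Peak lists hold no expression values, so the differentiated cell type could not be checked against its markers.

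Ribosomal proteins assemble with ribosomal RNA into the small subunit, which reads the mRNA, and the large subunit, which joins amino acids. Their genes are short, active in nearly every growing cell, and start with a run of pyrimidines, the 5′ terminal oligopyrimidine (TOP) motif, through which growth signals control the translation of their mRNAs. TWIST1 is a basic helix-loop-helix (bHLH) factor of mesenchyme and neural crest that binds, as a dimer with partners such as the E proteins, to the E-box CANNTG.

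The promoters of 4 genes show what the peaks near these genes look like at the sequence level. They were chosen after the values were seen, among the genes named below, because a peak summit fell inside the sequence in both OE libraries 2 and 3. The sequences are the 250 bases before and the first 10 bases after the RefSeq start, on the gene's own strand, and capitals mark every E-box CANNTG. Rps10 lies on the minus strand at chr17:27635235-27635494, Rpl14 on the plus strand at chr9:120571267-120571526, Rpsa on the plus strand at chr9:120127516-120127775 and Rpl19 on the plus strand at chr11:98026460-98026719, all in GRCm38.p6.
Rps10: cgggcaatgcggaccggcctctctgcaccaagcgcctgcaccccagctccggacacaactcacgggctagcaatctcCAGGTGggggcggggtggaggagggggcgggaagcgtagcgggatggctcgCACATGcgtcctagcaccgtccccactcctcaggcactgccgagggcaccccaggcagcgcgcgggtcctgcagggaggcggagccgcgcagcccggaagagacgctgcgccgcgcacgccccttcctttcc
Rpl14: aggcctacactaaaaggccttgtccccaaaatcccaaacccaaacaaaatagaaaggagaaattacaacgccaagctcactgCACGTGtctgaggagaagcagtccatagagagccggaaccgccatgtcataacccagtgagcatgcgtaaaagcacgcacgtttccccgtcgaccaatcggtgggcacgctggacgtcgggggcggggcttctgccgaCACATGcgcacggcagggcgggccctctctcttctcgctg
Rpsa: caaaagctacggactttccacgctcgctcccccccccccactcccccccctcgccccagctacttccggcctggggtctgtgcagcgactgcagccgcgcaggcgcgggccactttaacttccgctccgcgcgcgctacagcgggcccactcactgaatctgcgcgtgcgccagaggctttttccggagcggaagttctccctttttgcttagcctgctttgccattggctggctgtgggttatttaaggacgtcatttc
Rpl19: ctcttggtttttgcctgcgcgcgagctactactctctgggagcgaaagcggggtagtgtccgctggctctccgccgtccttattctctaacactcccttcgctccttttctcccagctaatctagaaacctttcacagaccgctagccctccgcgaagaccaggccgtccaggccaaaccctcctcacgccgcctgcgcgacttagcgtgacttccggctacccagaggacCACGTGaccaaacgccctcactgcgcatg
Rps10, a small subunit protein, has a CAGGTG that begins 173 bases and a CACATG that begins 122 bases before the start. Its summits lay at -95, -100 and -102 in OE libraries 1 to 3, between the second E-box and the start. Rpl14, a large subunit protein, has a CACGTG that begins at -168 and a CACATG at -30, with summits at -115 in OE library 2 and -67 in OE library 3. Rpl19, another large subunit protein, has 1 CACGTG that begins at -19, with summits at -82 and -34 in the same libraries. Rpsa, a small subunit protein also known as the laminin receptor precursor, has no CANNTG in this window. It nevertheless had summits there, at -63 in OE library 2 and at -160 in OE library 3. A match to these letters is a description and not a binding site.

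Nearly every ribosomal protein gene had a peak in OE libraries 2 and 3, few had one in OE libraries 1 and 4, and none had one in the KO libraries. A gene was counted when a peak covered at least 1 bp of the gene body or of the 1 kb beyond either end. In OE library 2, 75 of 77 genes had a peak (97.4%), against 75.9% of the remaining 20584 genes. In OE library 3 it was 72 genes (93.5%), against 74.1%. OE library 1 had 25 such genes (32.5%), against 42.4%, and OE library 4 had 20 (26.0%), against 34.4%. The ribosomal protein genes thus lay 21.5 and 19.4 percentage points above the remaining genes in OE libraries 2 and 3, and at -9.93 and -8.41 points in OE libraries 1 and 4.

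**Figure D1:**
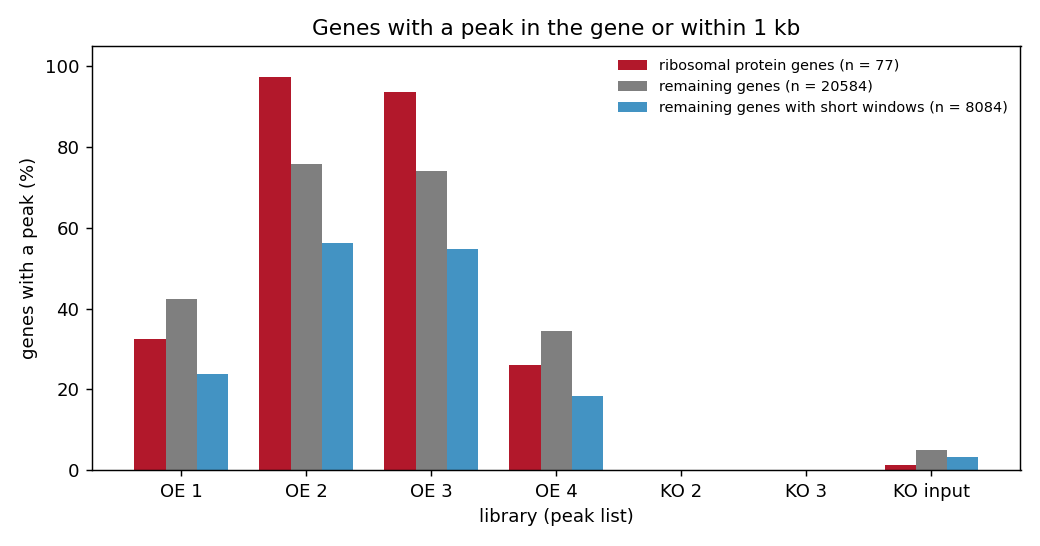
Percent of genes (y axis) with at least 1 peak in the gene or within 1 kb, for each peak list (x axis), for ribosomal protein genes (red), remaining genes (grey) and remaining genes with windows no longer than the longest ribosomal protein window (blue). The red bar stands above both others in OE libraries 2 and 3 (97.4% and 93.5%) and between them in OE libraries 1 and 4, and no bar is visible in the KO libraries.

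The 4 OE lists differ in length and depth, and this split follows them. The lists held 22388, 106821, 87441 and 14160 peaks in OE libraries 1 to 4, 104 and 71 in KO libraries 2 and 3, and 1774 in the input. The sources used here give no read totals. The genome-wide background, recovered from the lists as fragments piled up per position, was 1.00 and 1.20 in OE libraries 1 and 4. OE libraries 2 and 3 stood at 5.38 and 5.29, the KO libraries at 4.73 and 5.09 and the input at 6.46. The deeper pair listed weaker peaks, down to a fold of 2.49 and 2.48 at that background, against 3.92 and 4.09 in OE libraries 1 and 4. Fold is the authors' own peak value, the pileup at the summit over the local background, each with 1 added. It serves here for describing and ranking the peaks of 1 list. Folds of lists of unlike depth are not on 1 scale. Depth and library cannot be told apart here, and these pairs of libraries are not groups of the study.

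Gene length moved with the comparison too. The ribosomal protein windows had a median of 5183 bp, against 19637 bp for the remaining genes. Against the 8084 remaining genes with windows no longer than the longest ribosomal protein window (13774 bp), the ribosomal protein genes were higher in all 4 OE libraries. Those short-window genes were chosen by window length alone and not by promoter type. They had a peak in 23.8%, 56.1%, 54.9% and 18.3% of cases in OE libraries 1 to 4. The differences were 8.62, 41.3, 38.6 and 7.64 percentage points (mean 24.0). In the exact two-sided sign-flip permutation test, 2 of 16 flips gave a mean as large, the fewest that 4 libraries allow. Against all remaining genes the mean difference was 5.63 ± 17.1 points (SD, n = 4), higher in 2 libraries and lower in 2 (exact permutation p = 0.5), which is within the spread between libraries.

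Across the 2 genotypes, ribosomal protein genes with a peak made up 62.3% ± 38.4 (SD, n = 4) in OE and 0% in both KO libraries (n = 2). Each of the 4 OE values exceeded both KO values, and the exact two-sided permutation p over the 15 splits was 0.133, where 0.0667 is the smallest possible. The remaining genes were also nearly free of KO peaks, at 0.136% in KO library 2 and 0.0486% in KO library 3, so a count of 0 among 77 genes is near that background. Of those with short windows, 0.0742% and 0.0247% had a KO peak. Relative to the remaining genes of the same library, the ribosomal protein genes stood at 5.63 ± 17.1 points in OE (SD, n = 4) and -0.0923 ± 0.0618 in KO (SD, n = 2), a difference of 5.72 (exact two-sided permutation p = 0.733). Without OE library 2 that difference was 0.434. The KO libraries had a background close to that of OE libraries 2 and 3. At that background their lists held 21 and 6 peaks, with lowest folds of 3.66 and 3.94, against 2.49 and 2.48 in OE libraries 2 and 3.

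In the input, 1 ribosomal protein gene had a peak (1.30%), against 5.06% of the remaining genes and 3.18% of those with short windows. It was Rpl19, with a fold of 3.08, a pileup of 22 fragments and a summit at -3886 bp from the RefSeq start, inside the annotated gene. OE peaks of Rpl19 overlapped it in libraries 1 and 4, with summits at -4078 and -4056, and in library 3, with its summit at -4916. Of the OE peaks in ribosomal protein windows, 3.23%, 0%, 0.637% and 4.55% overlapped an input peak in OE libraries 1 to 4, against 4.04%, 1.37%, 1.70% and 5.36% of those in other windows. Over 31, 184, 157 and 22 peaks the ribosomal protein shares stand for 1, 0, 1 and 1 peak, each at Rpl19, so they rest on 1 gene and lie near the background. The share was lower in 4 of 4 libraries, by a mean of -1.02 points ± 0.262 (SD, n = 4), which 2 of 16 sign flips reached.

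The strongest peaks at ribosomal protein genes were weaker than those at the remaining genes, though mostly not weak within their own lists. The median best fold per ribosomal protein gene was 9.98, 6.11, 6.12 and 9.99 in OE libraries 1 to 4, against 13.97, 8.15, 7.79 and 12.3 at the remaining genes. As a percentile within its own list, the strongest peak of a ribosomal protein gene had a median of 53.2, 62.5, 61.4 and 51.4. The remaining genes had 68.8, 75.7, 73.2 and 62.9. The ribosomal protein genes were lower in 4 of 4 libraries, by a mean of -13.0 ± 1.87 percentile points (SD, n = 4), which 2 of 16 sign flips reached. The difference was larger than its spread between libraries, although 4 libraries cannot give a p under 0.05. It was smaller when window length was taken into account, at -7.52 against remaining genes with short windows and -4.84 when only 1 kb on both sides of the gene ends was counted (exact two-sided sign-flip permutation p = 0.5).

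Counting only stronger peaks removed the excess over all remaining genes, but not over those with short windows. At a fold of at least 10, 12, 21, 18 and 10 ribosomal protein genes were left in OE libraries 1 to 4, or 15.6%, 27.3%, 23.4% and 13.0%. The remaining genes stood at 28.0%, 30.4%, 28.0% and 21.5%, and so lay higher in every OE library. The short-window genes stood at 14.2%, 15.1%, 14.4% and 11.2%, below the ribosomal protein genes in every OE library. At a fold of at least 20 it was 7, 7, 7 and 3 genes (9.09%, 9.09%, 9.09% and 3.90%), against 14.6%, 13.8%, 12.1% and 8.06%. With every OE list shortened to its 13784 strongest peaks, 17, 14, 16 and 20 ribosomal protein genes kept a peak, or 22.1%, 18.2%, 20.8% and 26.0%. All remaining genes then stood at 33.6%, 23.8%, 25.0% and 34.4%, again higher in every OE library.

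**Figure D2:**
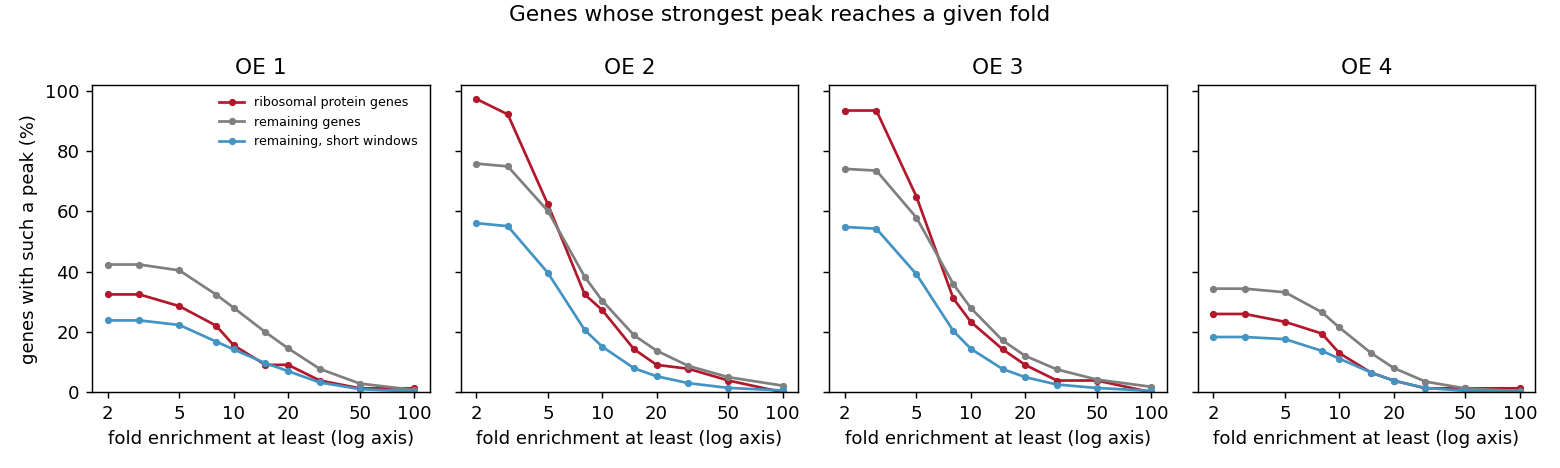
Percent of genes (y axis) whose strongest peak reaches a given fold (x axis, log scale), in the 4 OE libraries, for ribosomal protein genes (red), remaining genes (grey) and remaining genes with short windows (blue). In OE libraries 2 and 3 the red curve starts above the grey one and lies below it at a fold of 10 (27.3% against 30.4%, and 23.4% against 28.0%), while in OE libraries 1 and 4 it lies below the grey curve at that fold (15.6% and 13.0%).

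The 77 genes fell into a few patterns across the OE libraries. These counts are not set beside the same patterns of the remaining genes. They describe the 77 genes and do not set them apart. The largest class, 44 genes, had peaks in OE libraries 2 and 3 alone. A further 16 had peaks in all 4, 8 in libraries 1, 2 and 3, and 4, Rpsa among them, in libraries 2, 3 and 4. Rps6 had peaks in libraries 1 and 2, Rpl21 and Rps27l in library 2 alone. Rpl32l and Rpl39l had no peak in any of the 7 lists. Both are named as copies of core ribosomal protein genes, and Rpl39l is known as the form of Rpl39 used in male germ cells. By subunit, 15 of 47 large and 10 of 30 small subunit genes had a peak in OE library 1 (31.9% and 33.3%). OE library 4 marked 8 and 12 (17.0% and 40.0%), a difference that was not tested.

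**Figure D3:**
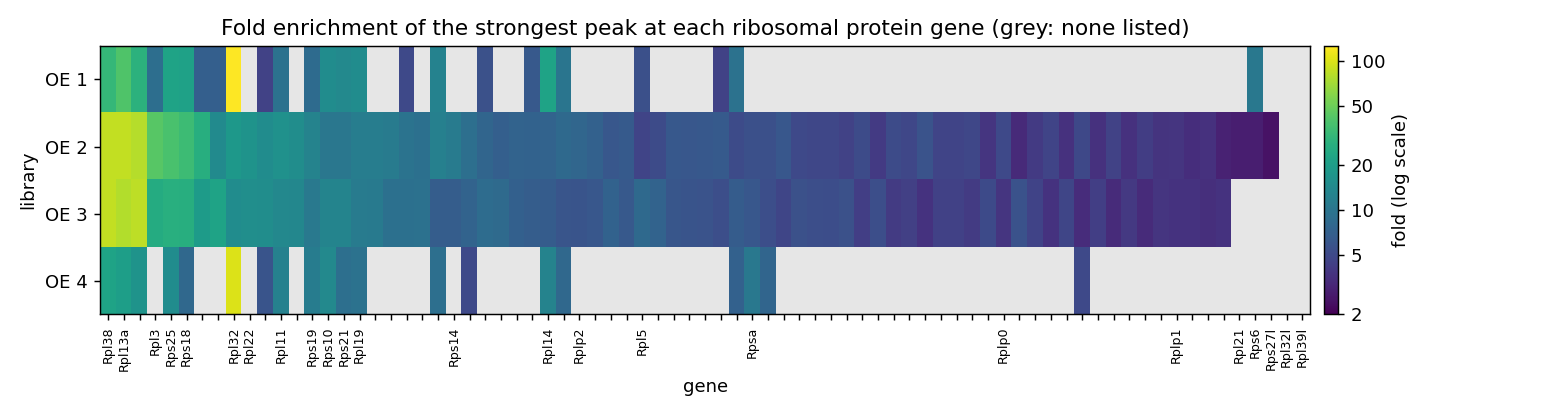
Fold of the strongest peak (colour, log scale; grey where no peak is listed) at each of the 77 ribosomal protein genes (x axis, 1 column each, with the names of genes described in the text) in the 4 OE libraries (y axis), ordered by strength. The rows of OE libraries 2 and 3 are filled for 75 and 72 genes with mostly low folds, the rows of OE libraries 1 and 4 for 25 and 20 genes, and Rpl32 is the brightest cell in libraries 1 and 4 (fold 125 and 101).

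The libraries ranked the genes alike within each depth. Over the 72 genes with a peak in both, Spearman's rho of the best folds of OE libraries 2 and 3 was 0.881, and over 16 genes it was 0.813 for libraries 1 and 4. Between the pairs it was 0.478 to 0.665 over 20 to 25 genes. These values are across genes, which are not independent replicates, and peaks of a library share its depth. Positions also recurred: for 53 of 72 genes (73.6%) the strongest summit of OE library 2 lay within 100 bp of a summit of OE library 3, with a median distance of 34 bp. For OE library 1 against 4 it was 14 of 16 genes (87.5%), with a median of 10 bp. For OE library 4 against 2 it was 10 of 20. Each summit was matched to any peak of the same gene's window. Neither the ranks nor the positions are set beside the same values for the remaining genes. They do not set the ribosomal protein genes apart.

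Peaks present in all 4 OE libraries were less common at ribosomal protein genes than at the remaining genes. Overlapping OE peaks were merged, and 10168 regions were supported by all 4 OE libraries and free of KO and input peaks. Of the ribosomal protein genes, 16 held such a region (20.8%), 8 of each subunit, against 27.8% of the remaining genes and 15.2% of those with short windows. Keeping regions with a KO or input peak left 16, against 29.8%. With support from at least 3 libraries it was 29 genes (37.7%), against 39.3%, and from at least 2 it was 73 (94.8%), against 71.2%. Without OE library 4, 25 genes held a region of the other 3. Of 27 genes that host a small nucleolar RNA, an RNA that guides modification of ribosomal RNA from within an intron, 3 held a region of all 4, and of the other 50 it was 13.

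Among large subunit genes, Rpl32 held the strongest region by mean percentile. It lies at chr6:115808254-115809287 with its summits just inside one end of the gene. Its folds were 125, 18.2, 15.1 and 101 in OE libraries 1 to 4. As percentiles of each list these are 99.2, 92.4, 89.9 and 99.1, so Rpl32 stood near the top of every OE list. Rpl32 alone among the 77 genes exceeded a fold of 100, in libraries 1 and 4, where 0.763% and 0.364% of the remaining genes did. Rpl14 had folds of 22.0, 7.52, 6.67 and 12.7 (percentiles 82.8, 72.6, 66.2 and 64.7) in a region at chr9:120570683-120571914 that covers its start. The strongest summits of the 4 libraries were spread over 796 bp within that region, at 132, -664, -67 and 103 bp from the start. OE library 2 also had a weaker peak in the region, with its summit at -115 bp and a fold of 5.49.

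Rpl13a, a large subunit protein that also takes part in translational silencing in inflammation, was marked upstream of its start. Its region, chr7:45127967-45130351, had folds of 39.9, 86.2, 78.2 and 20.4, at percentiles 94.0, 99.0, 98.9 and 84.0. All 4 summits lay at -315 to -322 bp from its start, within 7 bp of each other. Rpl38, which is required for translation of Hox mRNAs in the mouse embryo, reached 31.4, 85.9, 86.0 and 22.2 in the region chr11:114672330-114673865. Its summits lay 4371 to 4373 bp downstream of the Rpl38 start, 619 bp past the end of the gene, and nearer to the start of Ttyh2 (2516 bp). The percentiles at Rpl38 were 90.6, 99.0, 99.0 and 86.3, so both genes were in the upper part of every OE list.

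Rpl11 binds, with Rpl5 and the 5S ribosomal RNA, to the p53 inhibitor Mdm2. Its region, chr4:136053050-136054796, had folds of 9.48, 16.1, 13.8 and 12.3 (percentiles 50.4, 91.1, 88.6 and 62.9), and its summits lay at -684 to -695 bp from the start. Rpl5 had no region of all 4 and folds of 5.49, 4.70 and 8.26 (percentiles 13.0, 43.9 and 75.4) in OE libraries 1 to 3, with summits at -45, 183 and 175 from the start, and no peak in library 4. Of this pair only Rpl11 was thus marked in every OE library.

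Rpl19 had the most OE peaks of any ribosomal protein gene, 13 over the 4 libraries, followed by Rpl3 with 12 and Rpl38 with 11, and Rpl11 had 10. The shared region of Rpl19, chr11:98023862-98024435, had folds of 9.98, 7.01, 5.97 and 7.72. Its summits lay at -2533 to -2616 bp from the RefSeq start, nearer to the start of Cacnb1. Rpl3, a protein of the peptidyl transferase centre, had its strongest peak at folds of 8.98, 43.1 and 25.7 in OE libraries 1 to 3 and none in OE library 4. The summits of that peak, at 80076778, 80076768 and 80076779 on chromosome 15, lay beyond the lower end of the gene at 80077781. Rpl22, a large subunit protein needed in T cell development, had peaks in OE libraries 2 and 3 alone, with folds of 16.8 and 15.4 at 7417 and 7421 bp from its start, near its far end.

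The stalk genes had peaks in OE libraries 2 and 3 alone. Rplp0, Rplp1 and Rplp2 encode the stalk of the large subunit, which recruits elongation factors. Rplp0 had best folds of 5.02 and 3.81 in these libraries (percentiles 49.3 and 22.3), Rplp1 3.76 and 3.66 (22.8 and 18.4), and Rplp2 7.84 and 5.88 (74.3 and 58.9). Rplp1 was thus among the weaker peaks of both lists, and Rplp2 was above the median of both. The folds of Rplp1 and the second fold of Rplp0 lie below 3.92, the lowest fold that OE library 1 listed at its background. The peaks of Rplp2 lie above it. That limit comes from a list of unlike depth. It does not say which of these peaks OE library 1 could have listed.

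Among small subunit genes, Rps18 had folds of 21.5, 34.0, 26.7 and 8.17 in the region chr17:33950279-33953175, 4263 bp from its own start and 86 bp from that of B3galt4. Rps25, needed for translation from viral internal ribosome entry sites, had folds of 22.3, 38.2, 27.3 and 15.0 in the region chr9:44410617-44412064, 620 bp past the gene and 3300 to 3322 bp from its start. The percentiles were 82.2, 96.8, 95.5 and 38.3 at Rps18 and 83.1, 97.2, 95.6 and 73.2 at Rps25, highest in OE libraries 2 and 3. At both genes the peak belongs by position as much to a neighbour or to the space between genes as to the ribosomal protein gene.

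Rps10 and Rps21 held regions at or upstream of their starts. Rps10 had folds of 15.0, 10.3, 12.9 and 14.1 (percentiles 71.2, 83.0, 87.3 and 69.8) at chr17:27633948-27635686, with summits from -102 to 11 around the start, over the first of the promoters printed above. Rps21 had 13.97, 10.3, 12.9 and 9.08 (percentiles 68.8, 83.0, 87.3 and 45.5) at chr2:180255903-180258629, with summits at -1006 to -1073 bp from its start. Rps19, the gene most often mutated in Diamond-Blackfan anaemia, had best folds of 8.48, 12.9, 10.6 and 11.4. In the region at its start, chr7:24883863-24885121, the summits of OE libraries 1 and 4 lay 84 and 75 bp downstream of the start and those of 2 and 3 at -403 and -421 bp.

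The other small subunit genes named by the rule were weaker or less often marked. Rpsa had best folds of 5.49, 6.20 and 10.4 in OE libraries 2, 3 and 4. Rps14, which is lost in the 5q deletion syndrome of bone marrow, had 11.3 and 6.83 in OE libraries 2 and 3. Rps6, the substrate of the S6 kinases, had 10.5 in OE library 1 and 2.82 in OE library 2, with summits 228 and 182 bp downstream of its start, and no peak in OE libraries 3 and 4. Of the 77 genes, Rps6 alone had a peak in OE library 1 or 4 and none in OE library 3.

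Taking all 16 regions, the median summit lay outside the gene body at 12 and inside at 4. The positions in this paragraph were not counted for the regions of the remaining genes. They describe these regions and do not set the ribosomal protein genes apart. For 13 of the 16 genes the RefSeq start was known, and the median summit lay within 500 bp of it at 6 and over 2 kb away at 5. At 5 of the 16 genes another gene's start was nearer than the gene's own, and at 3 another start lay within 500 bp, Rps18 and Rps28 among them. A region could reach beyond the window that assigned it: Rpl27 held a region of all 4 without an OE library 4 peak in its window. The windows of 29 ribosomal protein genes overlapped another protein-coding gene, and 7 of these held a region. The other 48 did not overlap one, and 9 of these held a region.

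Summits close to the gene start were common in OE libraries 2 and 3. A start with strand was listed in RefSeq's promoter table for 57 of the 77 genes. A summit lay within 500 bp of it in 45 of 57 genes (78.9%) for OE library 2 and 43 (75.4%) for library 3, against 51.0% and 50.3% of the remaining genes and 38.0% and 37.5% of those with short windows. OE libraries 1 and 4 had 10 (17.5%) and 7 (12.3%), against 26.0% and 22.1%, and 14.6% and 11.6% with short windows. Neither KO library nor the input had such a summit at a ribosomal protein gene, against 0.00610%, 0.00% and 3.44% of the remaining genes. The deeper pair shared 42 of these genes, and 46 had such a summit in either.

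Peaks at the starts of ribosomal protein genes had a lower median fold than peaks at the starts of the remaining genes. The ribosomal protein median was 9.73, 4.39, 5.24 and 11.4 in OE libraries 1 to 4, against 14.5, 5.17, 5.56 and 12.3. As a percentile within its own list the median was 37.6 and 51.0 in OE libraries 2 and 3, against 51.6 and 55.2. A fold of 10 was reached by 4 of 45 and 4 of 43 in OE libraries 2 and 3 (8.89% and 9.30%), against 14.3% and 15.2% of the remaining genes with a start summit. In OE library 1 it was 4 of 10 (40.0%), against 67.6%, and in OE library 4 it was 5 of 7 (71.4%), against 62.2%. The fold of 3.92, the lowest that OE library 1 listed at its background, was exceeded by 28 of the 45 and 31 of the 43. That limit comes from a list of unlike depth, so these counts do not say which peaks OE library 1 could have listed. The genes with a start summit in all 4 OE libraries, named after their values were seen, were Rpl13a, Rpl14, Rps3, Rps10, Rps19 and Rps28.

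The summits at ribosomal protein genes were also sorted by their distance from both ends of the gene. Within 250 bp of the start lay 36.4%, 24.4%, 27.0% and 35.7% of the summits in OE libraries 1 to 4, close to the 39.2%, 24.3%, 26.7% and 42.5% at remaining genes with short windows. Within 1 kb of the far end lay 31.8%, 29.8%, 27.9% and 21.4%, against 12.6%, 18.1%, 18.3% and 11.6%. Those shares rest on 22, 131, 111 and 14 summits. The ribosomal protein windows had a median of 5183 bp, so the stretch within 1 kb of the far end is a large part of them. Whether the far-end shares exceed an even spread over such windows was not tested. The share within 1 kb of the start was 54.5%, 44.3%, 47.7% and 57.1%, against 43.8%, 24.3%, 26.8% and 53.7% at all remaining genes. The difference was 13.8 ± 8.30 points (SD, n = 4), higher in 4 of 4 libraries, which 2 of 16 sign flips reached. It turned to -7.14 against remaining genes with short windows, so its direction depended on the genes compared.

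**Figure D4:**
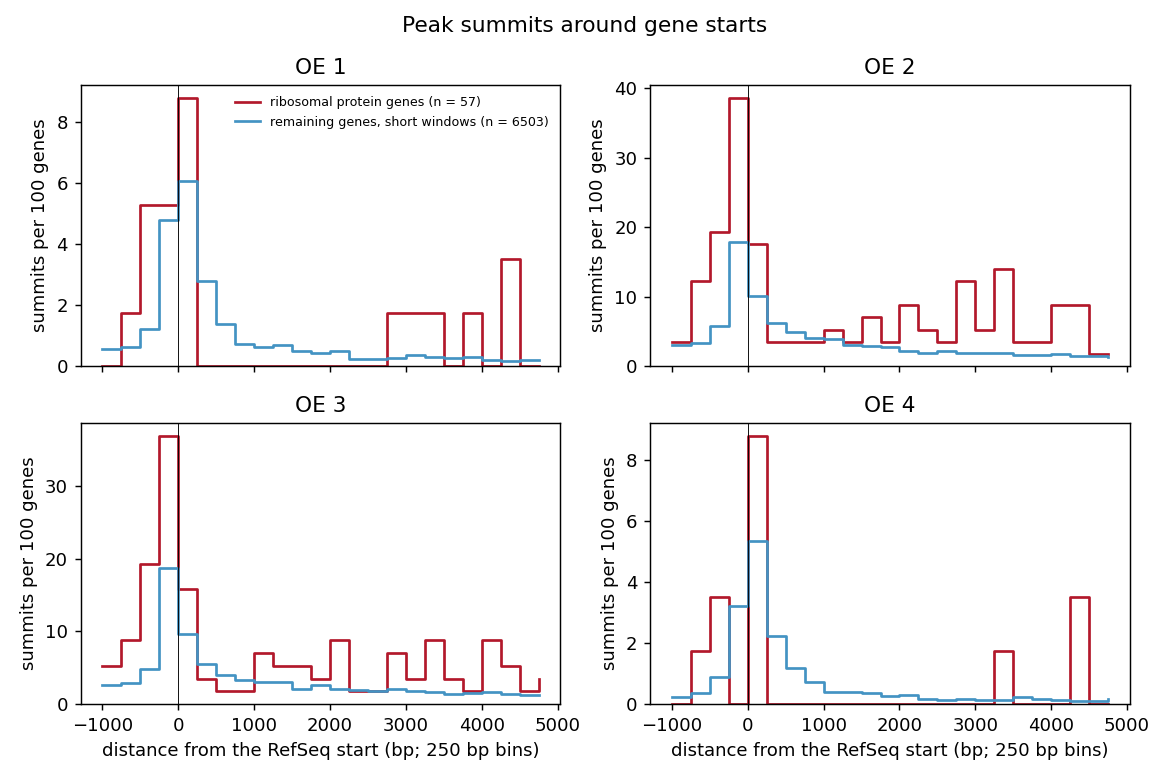
Summits per 100 genes (y axis) by distance from the RefSeq start (x axis, 250 bp bins, positive into the gene), for 57 ribosomal protein genes (red) and 6503 remaining genes with short windows (blue), in the 4 OE libraries. The red line has its peak next to the start and further summits from 1 to 5 kb downstream, where many of these genes end.

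Promoter letters were compared over the 300 bases from 250 before to 50 after the start, on both strands, for 57 ribosomal protein genes and 16456 promoters in all. The E-box CANNTG was found in 50.9% of the ribosomal protein promoters, against 68.4% of all promoters. CATCTG, an E-box form bound by TWIST1 and a part of CANNTG, was in 7.02%, against 14.9%, and CACGTG, also a part of it, in 8.77%, against 7.97%. The ETS-type CCGGAAG was in 40.4%, against 12.3%, the YY1-type AAGATGGC in 8.77%, against 3.21%, and the GC box GGGCGG in 56.1%, against 47.3%. A TOP-like start, a C followed by pyrimidines within 5 bases of the RefSeq start on the gene's strand, was in 47.4%, against 19.1%. The TATA-box letters TATAAA were in 8.77%, against 13.5%.

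The E-box letters were also set beside the peaks. Of the 42 ribosomal protein genes with a start summit in both OE libraries 2 and 3, 54.8% had a CANNTG, and of the 13 with a region of all 4 it was 61.5%. Of the 10 with no start summit in any list it was 30.0%, on a small number of genes. These shares count letters in the promoter alone. At 5 of the 13 genes with a region of all 4, its median summit lay over 2 kb from the gene's own start. At Rps21 and Rpl11 it lay 1040 and 693 bp away, also outside the promoter. The 61.5% therefore does not describe the sequence under those summits. Within OE library 2 the start summits had a median fold of 4.55 at 25 promoters with CANNTG and 4.39 at 20 without. In OE library 3 it was 5.56 at 23 and 4.93 at 20. For CATCTG the median fold in OE library 2 was 3.21 at 2 promoters with it and 4.55 at 43 without. In OE library 3 the values for CATCTG were 3.66 at 1 promoter and 5.24 at 42. These are descriptions across genes, with no test. The median GC content was 57.0%, against 56.7% over all promoters, and the ratio of observed to expected CpG was 0.88, against 0.60. Remaining genes with short windows had medians of 52.0% and 0.33. That comparison set thus differs from the ribosomal protein genes in promoter letters as well.

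Other gene lists, also chosen with earlier results of these data known, are set beside the ribosomal protein genes as counts. The 78 mitochondrial ribosomal protein genes, whose ribosomes work inside mitochondria, had a peak in 28.2%, 92.3%, 87.2% and 17.9% of cases in OE libraries 1 to 4 and a region of all 4 in 12.8%. The 15 ribosome biogenesis genes had 40.0%, 100%, 100% and 40.0%, with a region at 4. The 15 other TOP mRNA and elongation factor genes had 66.7%, 93.3%, 100% and 40.0%, with a region at 3 (Eef1d, Eef2 and Npm1). The 18 housekeeping genes had a peak at 9, 17, 18 and 7 members, with a region at 7. All 4 lists thus also had a higher share in OE libraries 2 and 3 than in OE libraries 1 and 4.

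Of 11 ribosomal protein genes outside the symbol rule or on chromosome X, 7 lie on chromosomes 1 to 19. A peak was present at 5, 7, 6 and 4 of these in OE libraries 1 to 4, and 3 held a region of all 4. The 10 bHLH dimer genes, Id and E-protein genes among them, had a peak in 80.0%, 100%, 100% and 70.0%, with a region at 6. The 276 ribosomal protein pseudogenes, a list added after the data were seen, had a peak in 1.09%, 13.4%, 10.9% and 0.362%. Pseudogenes share sequence with the genes, and the sources used here do not say how reads with several matches were placed. In the input, 4 of 18 housekeeping genes (22.2%), 2 of 15 in the TOP and elongation list, 2 of 15 in the biogenesis list and 2 of 78 mitochondrial ribosomal protein genes had a peak. The input share over the remaining genes was 5.06%.

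**Figure D5:**
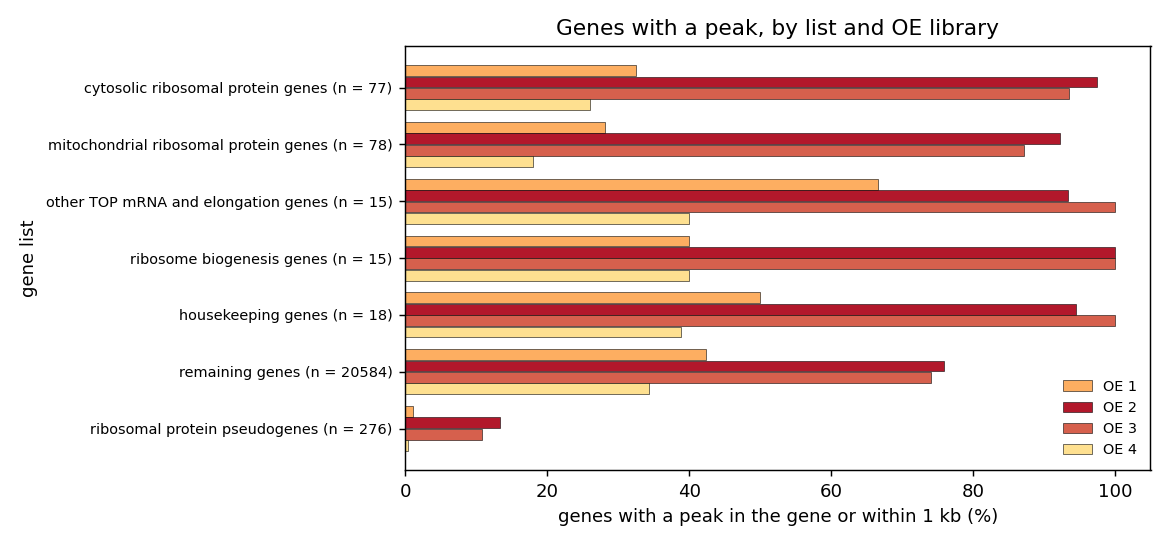
Percent of genes with a peak in the gene or within 1 kb (x axis) for each gene list (y axis, with its number of genes), with 1 bar for each OE library. Cytosolic ribosomal protein genes reach 97.4% and 93.5% in OE libraries 2 and 3, and the mitochondrial ribosomal protein, TOP, biogenesis and housekeeping lists reach 87.2% to 100%, while pseudogenes stay at or below 13.4%.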

How the data were processed

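The deposited files are peak lists, 1 per ChIP or input library, so peaks were called per sample. The tools in the submitters' processing notes are MACS2, BWA, Trimmomatic and Picard, and the builds are mm10 and GRCm38.p5. Versions, settings and the caller's control, which can change the lists, are not given in the sources. In the deposited lists, fold is a linear ratio of pileup over local background, each with 1 added, made by the authors' caller. The authors' lists also give −log10 of the p-value and −log10 of the q-value. The deposited score column was used only to check the layout. Per the labels, a TWIST1 antibody and formaldehyde-crosslinked, sonicated chromatin were used.

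Tools were Python 3.11.15, pandas 2.3.3, numpy 2.4.6, scipy 1.17.1 and matplotlib 3.10.9. Positions count from 1. A whole-number pileup and its background were solved from fold and p, within 0.15 of a whole number, for at least 93.9% of the peaks tried in each list. RefSeq's gene table gave no strand or exons, and its promoter table gave start and strand for 57 of the 77 genes. Regions are merged OE peaks sharing at least 1 bp. Single values were tested by exact permutation, over 15 splits of the 6 ChIP libraries or 16 sign flips over the 4 OE libraries. The design text speaks of biological replicates without saying which cultures gave which library, and p-values cover only the spread among these libraries.

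The genes, lists and alternatives were chosen with earlier results of these data known. The rule names genes with a KO or input peak, the 10 strongest by mean percentile among those with a region of all 4, genes with no peak, the 5 with most OE peaks, the stalk genes, Rpsa and 6 widely studied genes. Others are named as the exceptions in a count, after their values were seen, and some genes the rule names are not reported here. Alternatives covered the q-value limit, window, overlap, support, list length, comparison genes and leaving out each library. On simulated lists the window step recovered 100% of 200 planted genes among 20661.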

Additional observations from a re-analysis of the deposited data

How the results depend on the processing

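Of 133 alternative values, 115 kept their direction or, for counts, their call, 10 reversed and 8 moved. Of the alternatives, 16 were added after seeing the data. With so few libraries no exact permutation test could give a p small enough for a call. A test call could therefore not change, and for tested values only the direction was compared. The excess of ribosomal protein over remaining genes, OE against KO, became -7.37 with equal list lengths and -9.08 with OE libraries 1 and 4 alone. In the same direction it ranged from 0.358 at a −log10 q of at least 10 and 0.731 in the gene body to 24.1 against short-window genes. The share with a peak, 62.3, became 21.8 with equal list lengths (exact permutation p = 0.0667) and 29.2 with OE libraries 1 and 4. The fold percentile, -13.0, became -8.43 at that q, -7.52 against short-window genes, -6.42 with 5 kb windows, -4.87 with equal list lengths and -4.84 within 1 kb of either end. Within OE the excess became -7.46 and -9.17 with equal list lengths and OE libraries 1 and 4 alone and, at a fold of at least 10, -7.17. Overlap with input peaks became 0.441 in the gene body alone and 0.0315 with equal list lengths. The excess of summits near the start became -1.89 with 5 kb windows, -19.7 within 1 kb on both sides of either end and -7.14 against short-window genes. The 16 genes with a region became 9 without those overlapping another gene, 7 with equal list lengths, 29 and 73 with support from at least 3 and 2 libraries, 72 with OE libraries 2 and 3 alone and 25 without OE library 4. The 1 gene with an input peak became 0 at a −log10 q of at least 10 and 0 without genes overlapping another. The cause was not tested. Leaving out 1 library gave 50.6 to 74.5 for the share with a peak, 0.434 to 10.9 for the excess against KO and 0.342 to 10.8 within OE, 15 to 25 genes with a region, -1.08 to -0.898 for input overlap, -13.5 to -12.2 for the fold percentile and 11.4 to 17.3 for summits near the start. With the replicate number as a block, libraries 2 and 3 of each genotype gave 95.5 for the share (exact permutation p = 0.5) and 20.5 for the excess (exact permutation p = 0.5), and whether the numbers pair the samples could not be tested with 2 pairs. The differing depth of the OE lists limits every comparison between them.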
